A study of Mus musculus with 9 samples.

Results

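The transcriptome of freshly taken mouse lung at E11.5, named for the embryonic day, is described here as absolute abundance, gene by gene. It rests on the 3 libraries labelled as fresh E11.5 lung, taken by their labels, out of 9 libraries in the study. The lungs were wild-type, the labels name no added allele or agent, and they give the tissue as lung and the cells as primary lung cells. The other 6 libraries were explants of such lungs after 72 h in culture, as controls or with EPZ5676, an inhibitor of the histone methyltransferase DOT1L, and they are not used here. The labels do not say whether a library came from 1 embryo or from a pool, so the spread between libraries may be partly technical. No groups were compared and no test was run.

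At this stage the lung is a pair of small epithelial tubes that grow and branch inside a bed of mesenchyme. The epithelium comes from the ventral foregut endoderm and is marked by the transcription factor Nkx2-1, while the mesenchyme supplies growth factors such as Fgf10 that draw the tips of the tubes outwards. Vessels, a covering mesothelium, nerve precursors arriving from the neural crest and circulating nucleated red cells of the yolk sac lineage share the organ.

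Values are TPM, a measure of transcript abundance in which reads are divided by transcript length and scaled to the library, so levels of different genes can be set side by side. The 3 libraries are numbered 1, 2 and 3, and values are given in that order. A mean is followed by ± its SD over the 3 libraries. A gene counted as detected when it reached 1 TPM in all 3. The libraries held 6648564, 6627341 and 6598387 expected counts, so they differed little in depth. Protein-coding genes near 1 TPM rested on a median of 10, 8 and 8 counts. A gene listed at 0 in all 3 libraries may still be present below 3 counts, which is 0.451, 0.453 and 0.455 CPM (counts scaled to library depth without length), for counting error only.

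Of the 55286 genes in the table, 14053 were detected (25.4%), among them 12335 of 21876 protein-coding genes (56.4%). At the higher end, 8148 protein-coding genes reached 10 TPM in all 3 libraries, 1215 reached 100 TPM and 104 reached 1000 TPM. The detected protein-coding genes had a median of 20.5 TPM. Their median coefficient of variation (CV, the SD as a percentage of the mean) was 9.92%, and 80.2% of them had a CV under 20%. The 3 libraries thus agreed closely for most genes, but library 1 stood apart in a few groups. It was lowest in globins and highest in contractile genes and in transcripts typical of heart and liver, as given with each group below. It was also the library with Xist but almost no Y-linked transcripts. Xist, the RNA that coats the inactive X chromosome of female cells, was at 284, 143.5 and 72.5 TPM. Ddx3y, a Y-linked RNA helicase, was listed at 0, 20.02 and 30.2 TPM, and Eif2s3y, a Y-linked translation factor, at 0.56, 40.2 and 68.0 TPM. Libraries 2 and 3 therefore held both Xist and Y-linked transcripts.

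The most abundant transcripts served energy production and translation. The 100 most abundant genes held 34.0%, 32.1% and 33.2% of all TPM (33.1 ± 0.935%), and the 10 most abundant held 12.9 ± 0.734%. Genes of the mitochondrial genome took 10.2%, 8.18% and 9.36%. A further 4.19%, 3.845% and 3.86% went to 3 nuclear copies of mitochondrial genes on chromosome 1, whose reads cannot be told apart from theirs. The 84 genes for ribosomal proteins, of which 81 were detected, took 11.25%, 10.7% and 11.03%, and 37 of them stood among the 100 most abundant genes. Processed pseudogenes, among them copies of ribosomal protein genes, took 7.30%, 7.41% and 7.29%. The division of reads between such copies and their genes is an estimate. Globins took 1.81%, 2.50% and 2.31%.

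At the top of the table stood mt-Atp8, which encodes a small subunit of the mitochondrial ATP synthase, at 37604, 30850 and 35054 TPM. It is a very short gene (chrM:7766-7969), and its expected counts of 8944, 7493 and 8566 lay far below the 69498, 62314 and 65886 of mt-Co1. The latter encodes a core subunit of cytochrome oxidase and was at 11557, 10588 and 11053 TPM. The annotated lengths alone would not set mt-Atp8 above mt-Co1. Its top place thus depends on how the TPM estimate treats so short a gene.

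The next 3 places went to annotated pseudogenes on chromosome 1, named here after their values were seen. They are Gm28661, Gm28437 and Gm10925, at means of 15445, 12553 and 11616 TPM, and they lie side by side within chr1:24613189-24615565 (GRCm38, the assembly also called mm10). Each is a nuclear copy of a mitochondrial gene. Over the lengths compared, 681 of 681 bases of Gm28661 matched mt-Co2, 783 of 783 bases of Gm28437 matched mt-Co3 and 678 of 678 bases of Gm10925 matched mt-Atp6. Further annotated pseudogenes lie beside them, Gm10222, Gm28438 and Gm29216, at means of 1553, 1261 and 1183 TPM. Whether these also match mitochondrial genes was not tested. The opening of mt-Co2 is shown because the copy has the same letters, so that a read from it fits both places. The sequence is the first 120 coding bases, from GENCODE transcripts.

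mt-Co2 and Gm28661: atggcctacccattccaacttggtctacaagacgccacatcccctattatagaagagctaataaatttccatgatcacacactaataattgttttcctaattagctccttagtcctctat

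The mitochondrial mt-Co2 was listed at only 466, 317 and 635 TPM. With its copy added, the pair came to 15917 ± 943 TPM. In the same way mt-Co3 came to 13421 ± 563 TPM and mt-Atp6 to 16723 ± 901 TPM. The split within each pair is an estimate, and the members of a pair cannot be told apart in these values.

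Another high entry was Gm26377, again named after its values were seen, an annotated microRNA gene at 10036, 7093 and 7955 TPM. It lies at chr9:78478528-78478635, wholly inside the messenger RNA of Eef1a1, where it covers bases 1608 to 1715 of 1794. Reads of Eef1a1 and of this entry cannot be told apart there. The entry rested on only 203.2, 168 and 164.8 expected counts, against 62286, 58760 and 59181 for Eef1a1. Its high TPM thus depends on how so short an entry is treated. Eef1a1 itself, the elongation factor that brings transfer RNAs to the ribosome, was the most abundant protein-coding gene outside the mitochondrial genome. Its level was 9739, 9488 and 9225 TPM (9484 ± 257; chr9:78478449-78489151).

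Below Eef1a1 came Hbb-y, the embryonic beta-like globin epsilon-y, at 7908, 10019 and 9626 TPM. The 2 genes overlapped in range, with Eef1a1 higher in library 1 and Hbb-y higher in libraries 2 and 3. Hba-a1, an alpha globin, was at 5474, 6232 and 5682 TPM. Ptma, which encodes the small acidic nuclear protein prothymosin alpha, was at 5409, 6192 and 5733 TPM and so level with Hba-a1. Ribosomal protein genes followed, led by Rps24 at 4536 ± 136 TPM and Rpl23a at 3850 ± 99.5 TPM. The other mitochondrial genes among the first 20 were mt-Cytb (8877 ± 134 TPM), mt-Nd1 (7995 ± 1101), mt-Nd4 (5984 ± 356), mt-Atp6 (5108 ± 285), mt-Nd4l (4821 ± 716), mt-Nd2 (4072 ± 558) and mt-Nd6 (3601 ± 1121). They encode subunits of respiratory complexes I and III and of the ATP synthase. mt-Nd6 was the least even of them, at 4641, 2414 and 3748 TPM.

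**Figure D1:**
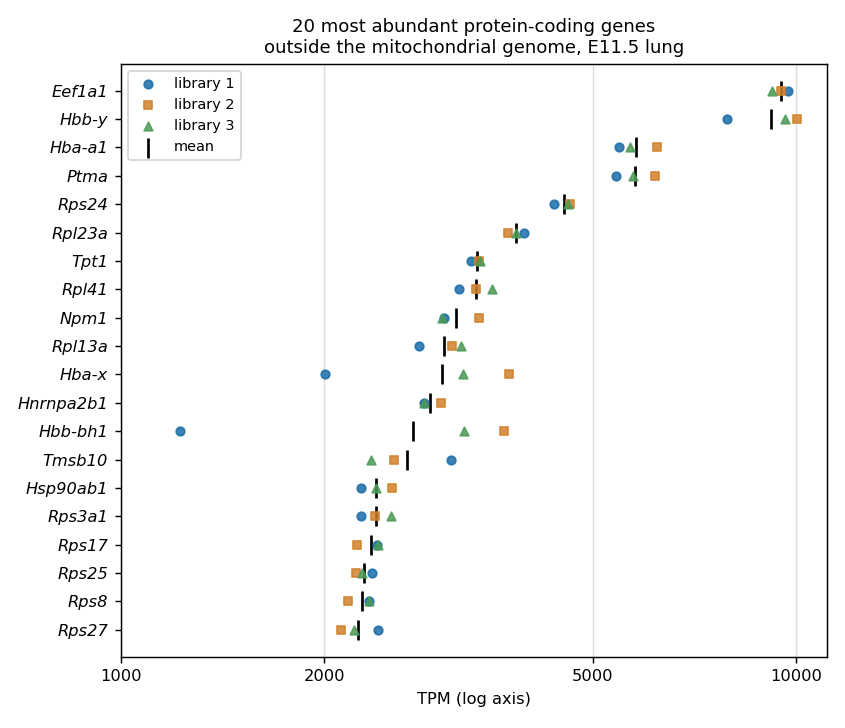
Levels of the 20 most abundant protein-coding genes outside the mitochondrial genome in fresh E11.5 lung. The x axis is TPM on a log scale, symbols are the 3 libraries and the black tick is their mean. Most genes have tightly grouped libraries, while Hba-x and Hbb-bh1 lie far lower in library 1 (2007 and 1223 TPM).

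Red cell transcripts formed the most abundant lineage signal. All 24 measured genes of the primitive erythroid list were detected, with a summed level of 18413, 25424 and 23503 TPM, lowest in library 1. Globins made up nearly all of that sum, with a mean of 22033 TPM, or 24013 TPM without library 1. The embryonic beta-like globins Hbb-y and Hbb-bh1 held 87.9%, 92.8% and 92.0% of beta globin TPM, and the embryonic alpha-like globin Hba-x (zeta) held 26.1%, 37.1% and 35.2% of alpha globin TPM.

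The promoters of the 3 globins with the highest means are shown because their genes lead the abundance of this lineage. They run from -120 to 10 around the RefSeq start (GRCm38.p6), 5′ to 3′ on the strand of the gene. Capitals mark 3 short motifs: CCACCC, the core of the box bound by Klf1; GATAA, the core bound by Gata1; and ATAA at the position of a TATA box. Hbb-y is at chr7:103853198-103853327 on the minus strand, Hba-a1 at chr11:32283552-32283681 and Hba-x at chr11:32276480-32276609, both on the plus strand.

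Hbb-y: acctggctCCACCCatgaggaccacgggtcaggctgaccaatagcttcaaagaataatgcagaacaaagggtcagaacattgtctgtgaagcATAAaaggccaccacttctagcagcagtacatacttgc

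Hba-a1: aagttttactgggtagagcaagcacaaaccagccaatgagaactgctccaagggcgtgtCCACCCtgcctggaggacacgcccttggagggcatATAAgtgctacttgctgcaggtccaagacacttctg

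Hba-x: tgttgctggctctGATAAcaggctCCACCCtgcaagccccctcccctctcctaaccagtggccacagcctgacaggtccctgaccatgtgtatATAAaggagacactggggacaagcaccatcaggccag

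Of the 7 globin genes, 6 had a promoter in the RefSeq table. Searched on both strands from -250 to 0, CCACCC stood in 5 of 6 globin windows and in 28.1% of all 32851 promoter windows. GATAA, searched the same way, stood in 6 of 6 and in 22.6% of all. ATAA, on the gene's own strand from -40 to -20, stood in 6 of 6 and in 7.35% of all. GATAA and ATAA may share their letters ATAA. A match describes letters and is no evidence that a factor binds.

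Hba-x was at 2007, 3763 and 3208 TPM, and Hbb-bh1 (beta-h1) was at 1223, 3698 and 3220 TPM. Both embryonic globins were thus far lower in library 1 than in the others. The adult beta globin Hbb-bs was even across libraries, at 893, 984 and 988 TPM. Hbb-bt, the other adult beta globin, went the opposite way from Hbb-bh1, at 363, 86.9 and 127 TPM. Since the beta globins resemble each other, the division of reads among them is an estimate.

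The alpha globins Hba-a1 and Hba-a2 show the same limit. Their coding sequences of 426 bases differ by the single substitution C381T (counted from 1 at the A of the start codon, with the base of Hba-a1 first) and encode the same protein. The stretch from base 351 to 411 is shown with that base in capitals.

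Hba-a1: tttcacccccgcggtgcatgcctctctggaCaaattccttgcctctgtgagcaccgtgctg

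Hba-a2: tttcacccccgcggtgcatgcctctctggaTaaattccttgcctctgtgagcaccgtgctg

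Hba-a2 was listed at 205, 158 and 235 TPM against the 5796 ± 392 TPM of Hba-a1. Coding reads that miss base 381 fit both genes, and the transcript models differ in length (554 and 699 bases), so this ratio depends on how reads were assigned.

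Beside the globins, the red cell list held genes for iron uptake, haem synthesis and the membrane. Tfrc, the transferrin receptor, was at 71.1, 86.0 and 89.1 TPM, and other dividing cells use it too. Alas2, the erythroid enzyme that opens haem synthesis, was at 42.4, 57.4 and 47.0 TPM. Slc4a1, the band 3 anion exchanger, was at 41.8, 63.2 and 50.4 TPM. Library 1 was the lowest in each of these. The erythroid factors Gata1 and Klf1 were far lower than the genes they are known for, at 3.07 ± 1.04 and 4.42 ± 1.82 TPM.

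**Figure D2:**
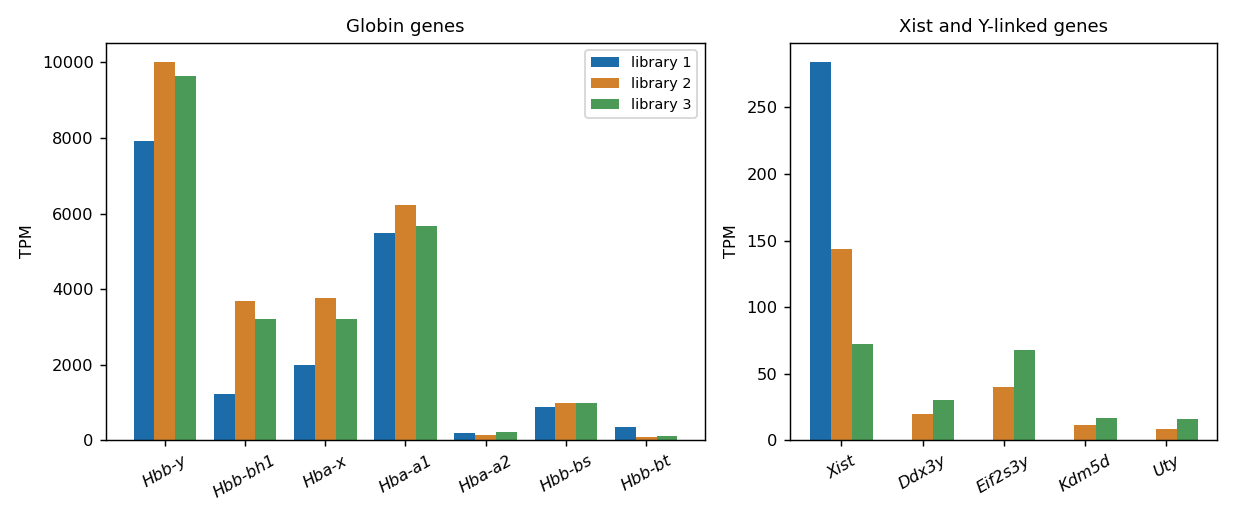
Left, TPM of 7 globin genes; right, TPM of Xist and of 4 Y-linked genes, with 1 bar per library of fresh E11.5 lung. Library 1 has less Hbb-bh1 and Hba-x and more Hbb-bt than the others, has the most Xist (284 TPM) and lists Ddx3y at 0.

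Transcription factors were read from a list of 749 DNA-binding factors and close partners, of which 747 were in the table. Of these, 427 were detected (57.2%), near the 56.4% of all protein-coding genes, 108 were at 0 in all 3 libraries, and the median level was 2.62 TPM, against 3.58 TPM over all protein-coding genes. Only 16 reached 100 TPM in every library.

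Peg3, a zinc finger gene expressed from the paternal allele (chr7:6703892-6730431), ranked at the top with 352, 437 and 388 TPM. Plagl1, another imprinted zinc finger gene, was at 306, 337 and 319 TPM. Tead2, a DNA-binding partner of the Hippo pathway co-activators, was at 248, 307 and 260 TPM. These 3 kept the same order in every library, and the ranges of Peg3 and Plagl1 did not overlap, nor did those of Tead2 and the next gene.

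Maz, a zinc finger protein of GC-rich promoters, was at 184, 197 and 194 TPM, level with Tcf12 at 185, 198 and 183 TPM. Tcf12 and Tcf3 (102 ± 3.07 TPM) are E proteins, the common dimer partners of tissue-specific helix-loop-helix factors. Their inhibitors Id3 (112 ± 2.15 TPM) and Id2 (110 ± 12.6 TPM) lack a DNA-binding region and stood at the level of Tcf3. Id2 is also known in the growing tips of the lung epithelium. Tfdp1, the dimer partner of E2F cell cycle factors, was at 151, 162 and 148 TPM. Mki67, a marker of cycling cells outside the factor list, was at 141, 157 and 156 TPM.

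Cofactors of the HOX proteins were prominent. Meis1 was at 145, 142 and 135 TPM and Pbx2 at 106, 132 and 114 TPM. Of the 18 TALE homeobox genes to which they belong, 16 were detected, with a median of 20.9 TPM. HOX genes themselves were lower, with 16 of 39 detected. Hoxa5, known for its role in lung mesenchyme and tracheal cartilage, led them at 86.6, 71.7 and 69.0 TPM. Hoxb3, at 69.3, 74.0 and 81.1 TPM, was level with it.

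HOX genes of low paralog number are used towards the head and those of high number towards the tail, and the detected genes were counted by that number, a grouping made after the values were seen. Of the genes in paralog groups 1 to 5, 13 of 15 were detected, with a summed 383.8 TPM. In groups 6 to 8, 3 of 8 were detected, led by Hoxb6 at 17.9 TPM. None of the 16 genes in groups 9 to 13 was detected, and 10 of them were at 0 in all 3 libraries. By cluster, 7 of 10 Hoxb genes, 5 of 11 Hoxa genes, 2 of 9 Hoxc genes and 2 of 9 Hoxd genes were detected.

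Nr2f2, an orphan nuclear receptor of venous endothelium and mesenchyme, was at 138, 154 and 128 TPM. Ctcf, which organises chromatin loops, was at 122, 156 and 138.5 TPM, and Trp53 at 122, 135 and 127 TPM. Further names among the first 20 were Atf4 (115 ± 6.39 TPM), a factor of the integrated stress response, Mtf2 (107 ± 4.55), an accessory protein of Polycomb complex PRC2, Crebzf (101 ± 15.4), a leucine zipper protein, and Usf1 (96.6 ± 11.9), a helix-loop-helix leucine zipper factor. From Meis1 downwards every neighbouring pair overlapped in range. Of the 19 neighbouring pairs in the first 20, 4 did not overlap, and 6 had the same order in all 3 libraries.

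Foxf1, the forkhead factor of visceral mesenchyme (chr8:121084386-121088144), was at 75.9, 111 and 103 TPM. Just below the first 20, Tbx5 was at 80.9, 111 and 94.3 TPM. Tbx5 and Tbx4 (60.8 ± 5.18 TPM) are T-box factors of lung mesenchyme. Among forkhead genes, 22 of 44 were detected.

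Each remaining factor family had a leading gene. In the ETS family, with 19 of 26 detected, it was Etv5, a target of FGF signalling in epithelial tips, at 67.9, 83.1 and 70.3 TPM. In the SOX and TCF/LEF list, with 18 of 25 detected, Hbp1 was highest at 89.0 ± 11.4 TPM, though it is neither a SOX nor a TCF/LEF factor. Sp3 led the KLF, SP and EGR family (21 of 31 detected) at 87.3 ± 2.19 TPM. Smad5, a transducer of BMP signals, led the family of signal-dependent factors at 66.1 ± 2.07 TPM, and 32 of its 36 genes were detected.

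Most NK-related and most paired and LIM homeobox genes were not detected at this depth. In the NK-related family 9 of 55 genes were detected, with a median of 0.0833 TPM, and 18 were at 0. Its leader Nkx2-1 (chr12:56531958-56536908) was at 37.6, 38.7 and 30.1 TPM. In the paired and LIM family 10 of 49 genes were detected, led by the mesenchymal gene Prrx2 at 24.6 ± 2.53 TPM. Of the remaining homeobox genes, among them those of the POU, CUT and ZF classes, 21 of 43 were detected and 6 were at 0, led by the zinc finger repressor Zeb2 at 52.6 ± 3.83 TPM.

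**Figure D3:**
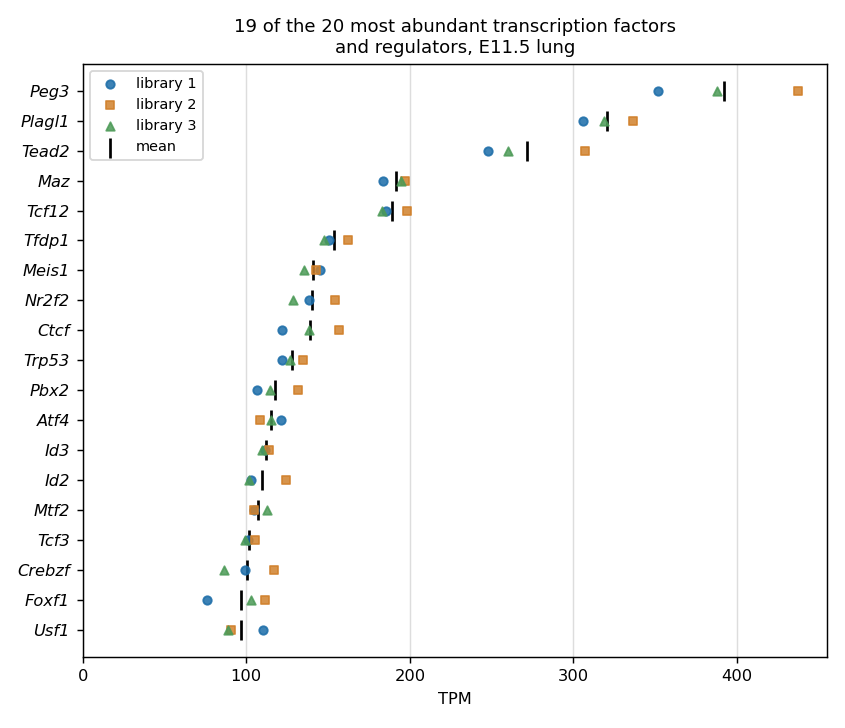
Levels of 19 of the 20 most abundant transcription factors and regulators in fresh E11.5 lung, in TPM from 0 upwards. Symbols are the 3 libraries and the black tick is their mean. Peg3, Plagl1 and Tead2 lie above the others, and from Meis1 (141 TPM) downwards the libraries of neighbouring genes overlap.

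Of 280 ligand genes, 140 were detected (50%), not far from the 56.4% of all protein-coding genes, and 36 were at 0 in all 3 libraries. The median was 1.46 TPM, against 3.58 TPM over all protein-coding genes. A few growth factors held most of the signal. Mdk (midkine), a heparin-binding growth factor of embryonic tissues (chr2:91929805-91932297), led at 1293, 1336 and 1317 TPM. Igf2, the imprinted fetal growth factor (chr7:142650766-142666816), was at 1324, 1248 and 1149 TPM. The 2 overlapped, with Mdk higher in libraries 2 and 3 and Igf2 higher in library 1.

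Ptn (pleiotrophin), the only relative of midkine, was at 677, 539 and 475 TPM. Mif, a cytokine and tautomerase, was at 406, 504 and 482 TPM. Ptn was highest and Mif lowest in library 1, and their ranges overlapped. Sparc, a collagen-binding matricellular protein, followed at 332, 291 and 275 TPM, and Dlk1, an imprinted membrane protein related to Notch ligands, at 225, 171 and 195 TPM. Each of these 2 was separated in range from the gene above and from the gene below.

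After Dlk1 the levels dropped to a plateau without clear order. Thbs1, a matricellular thrombospondin, was at 74.5 ± 5.59 TPM. Vegfa, the main growth factor of vessels, was at 68.6, 70.5 and 73.9 TPM. Cxcl12, the chemokine that guides cells bearing Cxcr4, was at 79.5, 67.1 and 58.7 TPM. Of the 14 neighbouring pairs in the first 15 ligands, 4 did not overlap.

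The plateau went on with Tgfb2, a TGF-beta, at 52.8 ± 6.18 TPM, Nid1, the basement membrane linker nidogen, at 50.1 ± 6.72 TPM, and Pdgfc, a platelet-derived growth factor, at 47.2 ± 7.26 TPM. Sema3a, a secreted guidance cue, was at 39.6 ± 4.17 TPM. Cxcl13, a chemokine known for drawing B cells, was uneven, at 30.03, 58.2 and 58.2 TPM, with library 1 low. Bmp4, which is made in epithelial tips and in mesenchyme, was at 37.6, 47.0 and 32.2 TPM and closed the first 15.

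The signals known to drive branching were modest in level. Fgf10, the chemoattractant made by distal mesenchyme, led the FGF family at 9.89, 12.7 and 10.5 TPM, and 8 of 22 FGF genes were detected. Shh, which the epithelium sends to the mesenchyme, was at 12.98, 18.6 and 17.7 TPM, and the other Hedgehog ligands, Ihh and Dhh, stayed under 1 TPM. Of 24 WNT and R-spondin genes, 12 were detected. Rspo1 (35.0 ± 7.33 TPM), the epithelial Wnt7b (34.7 ± 2.96 TPM) and the mesenchymal Wnt2 (32.8 ± 5.18 TPM) were level with each other.

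Other ligand families had the following leaders. All 8 ephrins were detected, led by Efnb1 at 38.5 ± 3.28 TPM. In the cytokine and haematopoietic list, with 14 of 34 detected, the highest was Kitl, the ligand of Kit, at 14.8 ± 1.63 TPM. Mif, far higher, was counted with the chemokines instead. In the EGF family, with 5 of 11 detected, it was Nrg2, a neuregulin, at 9.62 ± 2.32 TPM. Genes of the chemokine list, Mif included, were mostly low, with 8 of 32 detected and 10 at 0. Ligands at 0 in all 3 libraries included the inflammatory cytokine Il1b and the hormone genes Ins1 and Lep.

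Receptors were more widely detected than ligands. Of 237 receptor genes, 173 were detected (73.0%, beside 56.4% of all protein-coding genes), 8 were at 0, and the median was 8.47 TPM. In all 3 libraries 107 receptors and 55 ligands reached 10 TPM, 22 and 9 reached 50 TPM, and 2 and 6 reached 100 TPM. Itgb1, the beta-1 integrin shared by most matrix receptors (chr8:128685654-128733200), led at 260, 240 and 240 TPM. Igf2r, the imprinted receptor that clears IGF2, was at 115, 137 and 125 TPM. Neither overlapped with the next gene.

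Fgfr2, whose epithelial form binds FGF10, was at 102, 97.5 and 99.4 TPM. These gene values do not separate the epithelial form from the mesenchymal one. Plxnd1, a semaphorin receptor of vessels, was at 98.8, 97.7 and 97.9 TPM, with a range inside that of Fgfr2. Plxnb2, another plexin, was at 91.0 ± 8.18 TPM, and Ednra, an endothelin receptor, at 90.1 ± 6.76 TPM.

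The receiving end of Hedgehog signalling was well covered, with all 6 receptor genes detected. Ptch1, the receptor and also a target of the pathway, was at 61.8, 81.5 and 88.6 TPM, lowest in library 1 as Shh was. Smo, the transducer, was even at 74.4, 79.5 and 74.3 TPM. Gli1, a target gene and effector, was at 31.7, 42.7 and 49.4 TPM. In the BMP and TGF-beta family, 12 of 14 receptors were detected, led by Bmpr1a at 73.8, 73.6 and 82.5 TPM.

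The remaining names in the first 15 lay close together. They were Tnfrsf19, a TNF receptor family member (82.2 ± 8.28 TPM), Sdc2, a syndecan heparan sulfate proteoglycan (76.1 ± 4.40 TPM), and Ptk7, a pseudokinase of WNT planar polarity signalling (76.0 ± 1.09 TPM). Neo1, a receptor for netrins and repulsive guidance molecules, was at 67.2, 76.6 and 76.0 TPM. Ghr, the growth hormone receptor, was at 80.8, 66.0 and 65.8 TPM, and the netrin receptor Unc5c at 70.6 ± 0.891 TPM. From Fgfr2 to Unc5c, every neighbouring pair overlapped, and only 3 of the 14 pairs among the first 15 receptors kept their order in all 3 libraries.

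By family, all 10 receptors for VEGF, PDGF, angiopoietin and apelin were detected, led by Pdgfra, a mesenchymal receptor, at 66.3, 55.3 and 57.8 TPM. All 4 Notch receptors were detected, led by Notch3 at 28.2 ± 0.667 TPM. Of 19 WNT receptors 18 were detected. Chemokine receptors were the exception, with 5 of 21 detected and 6 at 0, and their leader Cxcr4 was at 15.7, 10.7 and 11.6 TPM.

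Secreted antagonists and binding proteins included some of the strongest signals of the secreted genes, with 28 of 39 detected. Igfbp5, which binds insulin-like growth factors, led at 670, 647 and 577 TPM. Fstl1, a secreted BMP-binding protein of lung mesenchyme, was at 289, 213 and 213 TPM, and Igfbp4 at 146, 150 and 137 TPM. These 3 did not overlap with each other. Sfrp2, a secreted WNT inhibitor, was at 102 ± 11.1 TPM. Igfbp2 was at 70.6, 102 and 96.8 TPM, low in library 1, and Ltbp1, which holds latent TGF-beta in the matrix, at 65.9, 81.0 and 78.6 TPM. Hhip, a Hedgehog-binding protein made in response to the pathway, was at 23.5, 32.8 and 29.6 TPM, lowest in library 1.

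**Figure D4:**
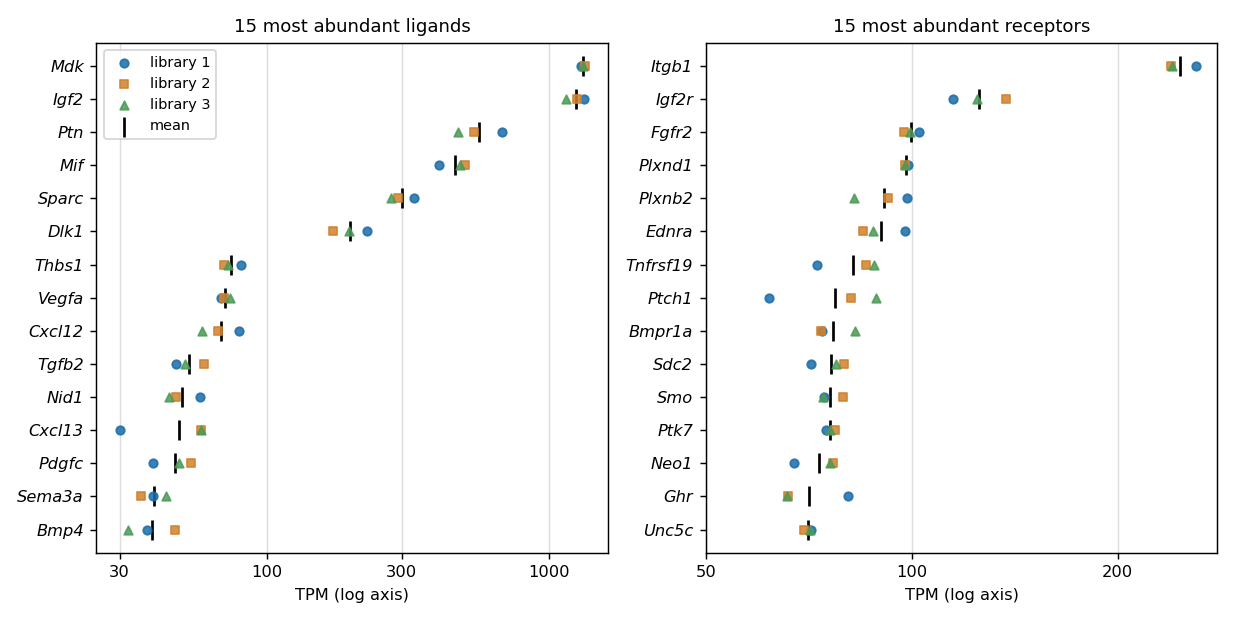
Levels of the 15 most abundant ligands (left) and receptors (right) in fresh E11.5 lung. Both x axes are TPM on a log scale with different ranges, symbols are the 3 libraries and the black tick is their mean. Ligands span from 38.9 TPM for Bmp4 to 1315 TPM for Mdk, while receptors from the third place down lie between 70.6 and 99.7 TPM.

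Lineages were read from 29 lists of marker genes, with 456 distinct genes in the table. In 16 lists at least 50% of the members were detected, beside 56.4% of all protein-coding genes. Several members mark more than one cell type, so a detected member is not by itself a sign of that type. In bulk tissue, fewer cells of a type and less RNA per cell cannot be told apart.

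Mesenchyme was the strongest solid-tissue signal. All 27 members were detected, with a median of 51.4 TPM and a sum of 2676, 2459 and 2337 TPM. Col3a1, a fibrillar collagen, led at 597, 455 and 452 TPM, highest in library 1. Vim (vimentin), the intermediate filament of mesenchymal and many other embryonic cells, was at 451, 497 and 496 TPM. Col1a2, another fibrillar collagen, was at 310, 242 and 228 TPM. Tcf21, a helix-loop-helix factor of lung mesenchyme, was at 62.2, 51.2 and 40.9 TPM. Lum (lumican), a collagen-binding proteoglycan, was at 18.9, 4.22 and 3.05 TPM, the most uneven member.

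All 15 airway smooth muscle genes were detected, with a sum of 908, 615 and 682 TPM. Myl9, a myosin light chain, was at 200.6, 119 and 139 TPM, and Acta2, smooth muscle actin, at 210, 103 and 121 TPM. Myh11, the myosin heavy chain of mature smooth muscle, was at 33.4, 11.2 and 18.4 TPM. These contractile genes were highest in library 1, and without that library the list summed to 648.5 TPM. Foxf1, the third highest member, and Hhip were instead lowest there. Library 1 also had the highest sums of heart muscle and liver genes, whose part in this difference was not tested. Of 10 pericyte genes, 8 were detected, led by Pdgfrb at 39.7 ± 2.98 TPM, Notch3, and Mcam at 27.5 ± 2.10 TPM. Higd1b, a marker of mature lung pericytes, was at 0 in all 3 libraries.

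Epithelium was present at a lower level. Of 28 general epithelial genes, 26 were detected, with an even sum of 524, 540 and 532 TPM. Epcam, an epithelial adhesion molecule, led at 83.1, 80.5 and 75.9 TPM. Cldn6, a tight junction protein of embryonic epithelium, was at 51.8, 53.9 and 54.2 TPM, and Prom1, a protein of membrane protrusions, at 47.8, 49.5 and 60.5 TPM. Cdh1 (E-cadherin) was at 21.3, 19.8 and 19.7 TPM.

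The lung epithelial identity list had 11 of 13 members detected. Foxp4, a forkhead repressor, led at 73.6, 97.8 and 80.1 TPM, and Irx2, an Iroquois factor, followed at 45.7, 56.0 and 45.8 TPM. Nkx2-1, the third, is also used by the thyroid and the ventral forebrain. Of 13 thyroid, thymus and parathyroid genes 3 were detected, and the part of those organs in the Nkx2-1 level was not tested. Foxa1 and Foxa2, pioneer factors of endoderm, were at 15.4 ± 1.44 and 15.3 ± 1.87 TPM.

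Genes of the distal tip had a median of 28.5 TPM and those of the proximal airway a median of 1.23 TPM. All 15 tip progenitor genes were detected, with a sum of 566, 656 and 604 TPM, led by Id2, by Bex4 at 93.2, 115 and 110 TPM, and by Bex1 at 72.6, 106 and 107 TPM. Bex1 and Bex4 are small X-linked genes that nerve cells also use. Sox9, a tip factor that cartilage and other tissues share, was at 22.1, 24.1 and 17.7 TPM. Sftpc, a surfactant protein gene that tips switch on early, was already present at 16.8, 8.93 and 14.3 TPM. In the proximal list 2 of 11 members were detected, Sox2 at 10.4, 6.70 and 7.23 TPM and Upk1b, a uroplakin that mesothelium shares, at 5.08 ± 2.09 TPM. Upk3a was at 0.

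Mature airway types were largely below detection. Of 11 secretory genes, 2 were detected, Cckar at 9.27 ± 2.08 TPM and Aldh1a7 at 8.35 ± 1.05 TPM. The defining secretory genes Scgb1a1, Scgb3a1, Reg3g, Cyp2f2 and Cbr2 were at 0 in all 3 libraries. Of 16 ciliated cell genes, 5 were detected, led by Tppp3 at 16.2 ± 0.981 TPM, Tekt1 at 9.02 ± 1.11 TPM and Ccdc39 at 8.13 ± 2.87 TPM. Rsph4a and Sntn were at 0, and the master factor Foxj1 was listed at 0.09, 0.57 and 0.19 TPM. Of 13 neuroendocrine genes, 4 were detected, with Ddc at 32.2 ± 4.92 TPM and Uchl1 at 29.6 ± 3.68 TPM the highest.

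Several genes of the alveolar lists were detected, long before alveoli form. In the alveolar type 1 list 11 of 13 were detected, led by Igfbp2, Vegfa and the caveolar protein Cav1 (60.4, 34.0 and 34.4 TPM), all of which have wider expression. Ager, the most restricted member, was at 5.21, 6.72 and 6.53 TPM. In the alveolar type 2 list 9 of 14 were detected (64.3%, beside 56.4% of all protein-coding genes). Without members that other lists hold, 6 of 11 were detected. The list was led by Etv5, which held 46.2% of its sum. Next came Lpcat1, an enzyme of surfactant lipid remodelling, at 43.5, 54.4 and 47.2 TPM, and Sftpc. Sftpb was at 1.82, 2.54 and 3.39 TPM, and Sftpd was at 0 in all 3 libraries.

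**Figure D5:**
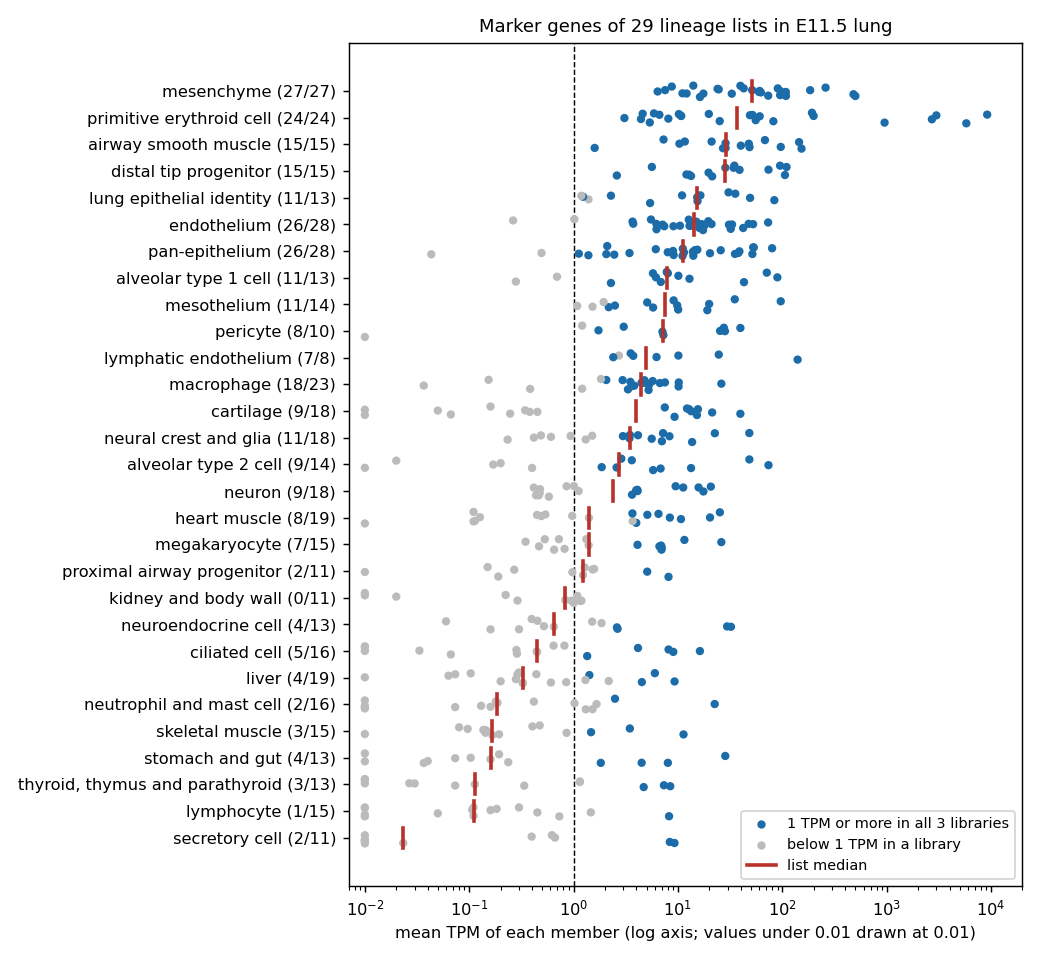
Mean TPM over the 3 libraries of each marker gene in 29 lineage lists of fresh E11.5 lung, on a log axis, with lists ordered by their median (red bar). Blue points reached 1 TPM in all 3 libraries, grey points did not, and the numbers in brackets are detected over measured members. Mesenchyme and primitive erythroid lists lie highest, while secretory and lymphocyte lists lie lowest.

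Vessels were well represented and even between libraries. Of 28 endothelial genes 26 were detected, with a sum of 555, 540 and 508 TPM. Egfl7, a secreted protein of endothelium, led at 74.3, 74.9 and 70.1 TPM. Cd34, a sialomucin of capillaries and blood progenitors, was at 53.8, 48.8 and 54.9 TPM, and Ramp2, a co-receptor for adrenomedullin, at 51.2, 45.2 and 46.5 TPM. Cdh5 (VE-cadherin) was at 40.6, 44.0 and 41.9 TPM. The 2 members not detected were Gpihbp1 and Etv2, an early factor of vessel specification.

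Of 8 lymphatic genes, 7 were detected, but Nr2f2 held 72.5% of the list's sum. Mmrn1 (multimerin) was at 24.6 ± 1.91 TPM and Pdpn (podoplanin) at 10.1 ± 1.98 TPM. Prox1, the factor that defines lymphatic identity, was at 2.97, 2.40 and 1.83 TPM.

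Mesothelium was seen in 11 of 14 genes. Aldh1a2, which makes retinoic acid and is shared with mesenchyme, led at 99.4, 91.9 and 98.6 TPM. Rspo1, a WNT-enhancing R-spondin, was at 36.1, 41.7 and 27.2 TPM. Upk3b, a uroplakin, was at 19.4, 18.3 and 22 TPM, and Wt1, the Wilms tumour factor, at 22.7, 16.0 and 18.7 TPM. Msln (mesothelin), which marks mature mesothelium, was at 0.37, 1.79 and 1.09 TPM and so was not detected by the rule.

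White blood cells were represented mainly by macrophages. Of 23 macrophage genes, 18 were detected, with a sum of 138, 97.8 and 120.5 TPM. Pf4, a chemokine of platelets and embryonic macrophages, led at 24.8, 22.3 and 31.03 TPM. Coro1a, an actin regulator of white cells, was at 14.3, 6.99 and 9.24 TPM, and Mrc1, the mannose receptor, at 13.5, 7.94 and 8.96 TPM. The receptor Csf1r was at 5.79, 4.73 and 3.70 TPM. Of 15 megakaryocyte genes 7 were detected, led by Pf4, Ppbp (9.49, 13.3 and 11.8 TPM) and Itga2b (10.8, 5.47 and 4.67 TPM).

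Granulocytes, mast cells and lymphocytes were near the limit. Of 16 neutrophil and mast cell genes, 2 were detected, Kit at 22.5 ± 1.99 TPM, which other progenitors share, and Mpo at 1.53, 4.28 and 1.67 TPM. Ly6g, Mcpt4, Cma1 and Tpsb2 were at 0. Of 15 lymphocyte genes, Lck alone was detected, at 8.91, 8.51 and 7.25 TPM, while Cd3g, Cd3e and Cd4 were at 0 in all 3 libraries.

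Transcripts of neural crest, glia and neurons were present. Of 18 neural crest and glial genes, 11 were detected (61.1%, beside 56.4% of all protein-coding genes), with a sum of 155, 135.5 and 106 TPM. Ednrb, the endothelin receptor of migrating crest cells and of some mesenchyme, led at 59.5, 43.7 and 41.7 TPM. Gfra1, a GDNF co-receptor, was at 25.6, 22.4 and 19.7 TPM, and Erbb3, a neuregulin receptor, at 14.0, 15.5 and 11.6 TPM. Sox10, the defining factor of crest and glia, was at 7.33, 8.50 and 5.23 TPM. Of 18 neuron genes, 9 were detected, which is 50% of them, led by Dcx (20.7 ± 1.72 TPM), Isl1 (17.5 ± 1.13 TPM) and Gap43 (18.7, 19.6 and 9.04 TPM). Library 3 had the lowest sum of both lists.

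Cartilage genes were split. Of 18, 9 were detected, led by Col2a1, the cartilage collagen, at 45.4, 37.3 and 36.2 TPM, by Sox9, and by Col9a1 at 20.98, 13.9 and 11.8 TPM. The mature matrix gene Acan was at 0.27, 0.1 and 0.11 TPM, and Matn1 and Pax1 were at 0.

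Transcripts of neighbouring organs were low. The sums of their lists were highest in library 1, except for stomach and gut, lowest there at 32.6, 50.2 and 47.8 TPM. Of all 29 lineage lists, 17 were highest in library 1, so this is not particular to neighbouring organs. Of 19 heart muscle genes, 8 were detected, with a sum of 134, 76.6 and 65.4 TPM. Myl7, an atrial myosin light chain, was at 37.1, 21.3 and 17.3 TPM. Tnnt2, cardiac troponin T, was at 18.3, 23.2 and 19.4 TPM, and Actc1, cardiac actin, at 23.5, 5.20 and 3.36 TPM. Myh6, the atrial myosin heavy chain, was at 10.5, 0.41 and 0.12 TPM. Sln was at 0. Myh6 was thus found almost only in library 1, while Myl7 and Tnnt2 were present in all 3 libraries.

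Of 19 liver genes, 4 were detected, with a sum of 45.8, 24.5 and 15.3 TPM. Trf (transferrin) was at 11.8, 10.6 and 5.43 TPM, and Rbp4, a retinol carrier, at 4.51 ± 0.536 TPM. Afp, alpha-fetoprotein, which yolk sac also makes, was at 12.3, 3.96 and 1.72 TPM. Alb (albumin) was at 6.14, 0.38 and 0 TPM, and Apoc3 was at 0 in all 3 libraries.

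Of 15 skeletal muscle genes, 3 were detected, led by Tnnt1 at 11.3 ± 3.87 TPM, Tnnt3 at 3.46 ± 1.69 TPM and Tnni2 at 1.47 ± 0.505 TPM, with Myog at 0. Of 13 stomach and gut genes, 4 were detected. Among them were Gata4 (20.6, 32.9 and 31.7 TPM), Cldn18 (6.08, 8.87 and 9.06 TPM) and Barx1 (1.82 ± 0.907 TPM), and Cdx2 and Nkx2-2 were at 0. Gata4 is a factor of visceral mesenchyme and mesothelium as well, and Cldn18 is also a lung claudin.

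Of 13 thyroid, thymus and parathyroid genes, 3 were detected, namely Ccl25 (8.44 ± 1.85 TPM), Hhex (7.34 ± 0.401 TPM) and Eya1 (4.70 ± 1.28 TPM), with Pax8, Pth and Foxe1 at 0. None of the 11 kidney and body wall genes was detected, and Pax2 and Pax1 were at 0. Dot1l, the target of the compound used on the explants, was at 23.1, 23.1 and 21.2 TPM in the fresh lung.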

How the data were processed

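Expected counts (estimates, with 14.5% to 15.3% of values not whole numbers) and TPM, in separate tables, are what the authors deposited. RSEM, Bowtie2 and mm10 are named per the submitters' processing notes, and versions, annotation and strand setting are not given in the sources used here. RNA was extracted with TRIzol, and 1 ug went into the VAHTS Universal V8 kit, per the labels' protocols. All 55286 identifiers and symbols matched GENCODE M21, from which positions and gene types were taken. Genes that overlap on opposite strands may therefore share reads.

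The deposited TPM were used as they stand, with python 3.11.15, pandas 2.3.3 and numpy 2.4.6. Figures were drawn with matplotlib 3.10.9, and promoters came from a RefSeq table. Detection was 1 TPM or more in all 3 libraries. The ranking and detection code was tested on simulated data, and the summing code was not. Lists of transcription factors, ligands, receptors, antagonists and 29 lineages held 1609 members, 1606 of them in the table. The members and lists were chosen with earlier results of these data known. The genes named were the first 20 genes and factors, 15 ligands, 15 receptors and 6 antagonists, family leaders, the 3 highest and the absent members of lineage lists, anchor genes and the most variable genes, where a tie left no first 10. Other members named were chosen after their values were seen, and predicted names were left out unless stated. Neighbours in an order were called separate where the ranges of the 3 libraries did not overlap. A few genes that this rule takes are not reported here.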

Additional observations from a re-analysis of the deposited data

How the results depend on the processing

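The share of the 100 most abundant genes, 33.1% of TPM, was 28.0% without mitochondrially encoded genes and 18.1% in CPM, which have no division by length. The 28.0% still includes the 3 nuclear copies of mitochondrial genes on chromosome 1, and the pseudogene Gm10222 beside them. Ranking by CPM kept 11 of the first 20 genes, 12 of the first 20 transcription factors and 8 of the first 15 receptors. Ranking only protein-coding genes outside the mitochondrial genome, an alternative added after seeing the data, kept 6 of the first 20 genes. The detection threshold also changed the counts, which were 14053 genes and 16 lists at 1 TPM. At 0.5 TPM in all 3 libraries 15533 genes were detected, and 18 lists had at least 50% of members detected. At 5 TPM these were 10480 genes and 11 lists, beside 45.0% of protein-coding genes detected. Leaving out each library in turn gave 14459 to 14515 detected genes, a share of 32.7% to 33.6%, and 16 or 17 lists with at least 50% of members detected. It kept 19 or 20 of the first 20 genes, 18 or 19 of the factors, 13 or 14 of the ligands and 14 or 15 of the receptors. The sum of a lineage list moved by more than its SD in 26 of 29 lists without the highest member, in 27 when TPM were rescaled to protein-coding genes outside the mitochondrial genome and in 10 without shared members. Rescaling raised every sum, as from 532 to 709.5 TPM for general epithelium, and leaving out members can only lower a sum. These counts thus follow in part from arithmetic. Without library 1 the liver sum fell from 28.5 to 19.9 TPM and the heart muscle sum from 91.8 to 71.0 TPM. No paired analysis was possible because no groups were compared and no result came from a test. Expected counts near 8 limit what can be said of genes close to 1 TPM.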

Other observations

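Imprinted genes were gathered in a list after their values were seen, so the counts follow from that choice. Of 32, 31 were detected, 13 reached 100 TPM in all 3 libraries, and the median was 53.9 TPM. Of all protein-coding genes 56.4% were detected and 5.55% reached 100 TPM. H19, a non-coding RNA expressed from the maternal allele, was at 2958, 2724 and 2618 TPM. Gnas, which encodes a stimulatory G protein subunit, was at 1254, 1339 and 1198 TPM. Mest was at 801, 861 and 772 TPM, and Grb10, an adaptor that restrains insulin and IGF receptors, at 624, 657 and 648 TPM. Cdkn1c, an inhibitor of the cell cycle, was at 407, 431 and 419 TPM, and Nnat at 299, 305 and 309 TPM. The non-coding RNAs Rian (643, 495 and 493 TPM) and Meg3 (400, 310 and 331 TPM) were both highest in library 1.

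Of the 3150 genes with a mean of at least 50 TPM, 12 were tied at the largest CV, 173.2%, which any gene listed at 0 in 2 of 3 libraries has. No first 10 can be drawn from such a tie, and 11 of the 12 were annotated as small RNA types. A second look, added after seeing the data, took the 2907 protein-coding genes outside the mitochondrial genome with 100 or more expected counts in each library. Of these, 20 had a CV over 30% and 2302 a CV under 10%. Cwc22, a splicing factor, was at 268, 50.1 and 60.1 TPM, high in library 1. Lars2, a mitochondrial leucyl-tRNA synthetase, was at 35.3, 38.1 and 173 TPM, high in library 3. A pair of genes named after their values were seen, the ribosomal RNA gene CT010467.1 (174, 218 and 763 TPM) and the overlapping non-coding AY036118 (124, 168.5 and 547 TPM), were likewise highest in library 3. The part of ribosomal RNA in the Lars2 value was not tested. The ribosomal protein gene Rpl26 was at 1466, 682 and 789 TPM, and Rpl21 was at 295, 571 and 279 TPM. Ribosomal protein genes have many pseudogene copies, so the division of their reads is an estimate. Akap12, a scaffold protein, was at 77.4, 40.0 and 43.9 TPM, and the collagen gene Col1a1 at 150, 94.5 and 80.8 TPM, each highest in library 1.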
